A study of Mus musculus with 12 samples.

Results

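The 35 genes described here are the machinery of cell division, 23 of them genes of mitosis and 12 of DNA replication, out of 20660 named genes on the array. They were chosen by name and role, with earlier results of these data known. Counts and medians over them are therefore descriptions and not tests of the set. Cells that divide switch on the replication genes as they copy their DNA and the mitosis genes as they separate it, and resting cells keep both sets low. In adipose tissue most mature adipocytes do not divide, and dividing cells are found among progenitors, endothelial cells and immune cells, for example in fat that expands on a high-fat diet (HFD). All 35 genes had a probe, and 30 passed the filter on dim signal, 18 of the 23 mitosis genes and all 12 replication genes.

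RNA of subcutaneous white adipose tissue (scWAT) and brown adipose tissue (BAT) was measured in WT and Lr11-/- mice on one-colour Agilent arrays, with 3 arrays in each of the 4 groups. The mice were C57Bl6/J males of 12 weeks. All were fed HFD, with 60% of calories from fat, for 4 weeks by 1 label and from weaning by another, so its length is not settled. Lr11-/- mice lack the sorting receptor gene Sorl1 (Lr11) in all cells and were compared with WT littermates. The labels do not say whether an RNA came from 1 mouse or from a pool, so p-values measure the spread between these samples. Levels are log2 intensities relative to the 75th percentile of the same array, so that 0 is as bright as that percentile, and the level of a gene is that of its brightest probe. A level compares arrays for 1 gene and not 1 gene with another. In whole tissue, fewer cells of a type and less RNA per cell cannot be told apart.

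Sorl1 stood between 0.11 and 1.21 on the 6 WT arrays and between -3.93 and -2.45 on the 6 Lr11-/- arrays, with a log2 difference of -4.34 (limma, adjusted p = 0.0063) in scWAT and of -3.63 (adjusted p = 0.032) in BAT. Several arrays stood apart within their groups. All 7 adipocyte markers were well above background on every array, but their summed level, in multiples of the 75th percentile intensity, was 377 on WT scWAT replicate 2 and between 963 and 2275 on the other 11. The 6 skeletal muscle markers summed to between 521 and 2791 on WT scWAT replicate 3, Lr11-/- scWAT replicate 1, WT BAT replicates 1 and 3 and Lr11-/- BAT replicate 1, and to between 0.998 and 4.66 on the other 7. The 6 epithelium markers summed to 42.7 on Lr11-/- scWAT replicate 1 and 8.44 on WT scWAT replicate 3, and to between 0.475 and 0.842 on the other 10. Replicate 1 of each group belongs to a first array series and replicates 2 and 3 to a second. The first series holds 1 array a group, so a comparison within it has no test. Its scWAT arrays shared a slide and its BAT arrays another, so tissue and slide cannot be told apart within it.

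Promoters of these genes carry short elements through which they are switched on together. The mitosis genes are known for the cell cycle homology region (CHR), bound by complexes that silence them in resting cells and activate them before mitosis, and for CCAAT boxes, bound by NF-Y. Replication genes are known for E2F sites. RefSeq promoters (GRCm38.p6, 250 bases before to 50 bases after the start) were found for 30 of the 35 genes, 32 promoters in all, and were searched on both strands. The letters TTTGAA of the CHR occurred in 15 of 20 promoters of mitosis genes, or 75%, in 1 of 12 of replication genes, or 8.33%, and in 17.9% of all 32851 promoters. An E2F site, taken as TTTCCCGC, TTTGGCGC, TTTCGCGC or TTTGCCGC, occurred in 1 promoter of the mitosis genes, that of Cdk1, or 5%, in 6 of the replication genes, or 50%, and in 2.26% of all promoters. The letters CCAAT occurred in 18 promoters of mitosis genes, or 90%, in 8 of replication genes, or 66.7%, and in 37.4% of all. A match is a description of these letters and not evidence that a factor was bound. The 250 bases before the start of 4 mitosis genes with the CHR are shown with the CHR and CCAAT letters in capitals, followed by those of Mcm6 with the E2F letters in capitals, as examples of each kind of promoter.
Mki67 (chr7:135716380-135716629, minus strand): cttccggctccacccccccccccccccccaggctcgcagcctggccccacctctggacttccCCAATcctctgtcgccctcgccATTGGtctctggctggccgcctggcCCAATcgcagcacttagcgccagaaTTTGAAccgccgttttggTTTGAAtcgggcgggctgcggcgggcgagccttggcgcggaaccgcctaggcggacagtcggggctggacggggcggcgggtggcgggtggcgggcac
Cdk1 (chr10:69352913-69353162, minus strand): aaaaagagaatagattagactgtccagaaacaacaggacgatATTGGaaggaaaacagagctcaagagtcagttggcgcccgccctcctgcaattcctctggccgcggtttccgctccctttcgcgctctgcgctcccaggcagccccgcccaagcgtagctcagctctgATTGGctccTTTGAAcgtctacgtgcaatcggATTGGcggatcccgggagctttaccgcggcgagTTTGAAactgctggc
Ccnb2 (chr9:70421555-70421804, minus strand): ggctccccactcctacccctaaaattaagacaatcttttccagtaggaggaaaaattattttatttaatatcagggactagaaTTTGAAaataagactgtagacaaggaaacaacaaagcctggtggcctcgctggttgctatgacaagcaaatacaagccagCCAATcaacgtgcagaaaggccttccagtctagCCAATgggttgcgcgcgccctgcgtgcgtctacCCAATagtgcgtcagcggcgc
Top2a (chr11:99024190-99024439, minus strand): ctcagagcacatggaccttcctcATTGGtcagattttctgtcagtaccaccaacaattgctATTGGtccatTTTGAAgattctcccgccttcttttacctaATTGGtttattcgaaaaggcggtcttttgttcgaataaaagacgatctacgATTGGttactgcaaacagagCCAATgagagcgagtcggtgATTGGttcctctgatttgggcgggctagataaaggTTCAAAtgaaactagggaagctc
Mcm6 (chr1:128359706-128359955, minus strand): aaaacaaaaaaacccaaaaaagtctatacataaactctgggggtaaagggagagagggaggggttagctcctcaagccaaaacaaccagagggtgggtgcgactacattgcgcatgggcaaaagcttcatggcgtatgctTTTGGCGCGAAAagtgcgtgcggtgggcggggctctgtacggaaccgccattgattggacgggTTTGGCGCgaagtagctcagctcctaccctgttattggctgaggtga

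Counted from the start, the CHR letters stood at positions -116 and -98 in Mki67, at -71 and -15 in Cdk1, at -179 and, on the other strand, -23 in Top2a, and at -167 and 5 in Ccnb2. The 3 CCAAT boxes of Ccnb2 began at positions -87, -54 and -21. In Mcm6 the E2F letters began at -110, -106 and -47, and the first and second of these overlap. Bub1b and Rrm2, the genes called in scWAT, differed in this window: Bub1b held the CHR letters at position 41 and 1 CCAAT box, and Rrm2 held a CCAAT box at -50 and neither of the other letters.

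WT scWAT replicates 1 and 2 carried the highest levels for most genes. For most mitosis genes WT scWAT replicate 3, from the same group, resembled the arrays of the other groups. The median level of the 23 mitosis genes was -0.55 on WT scWAT replicate 1, -0.71 on replicate 2 and -3.16 on replicate 3. It lay between -3.03 and -2.62 in Lr11-/- scWAT, between -3.51 and -2.71 in WT BAT and between -4.41 and -2.82 in Lr11-/- BAT. Of the 23 genes 11, 18 and 15 were well above background on Lr11-/- BAT replicates 1, 2 and 3. The median of -4.41, on replicate 1, lay below the weakest signal that counted as such there, -4.28. The median of the 12 replication genes was 0.74, 1.58 and -0.31 in WT scWAT, between -1.23 and -0.85 in Lr11-/- scWAT, between -1.18 and -0.83 in WT BAT and in Lr11-/- BAT -1.64 on replicate 1 and -1.35 on replicate 3, with replicate 2 above both. By this median of the replication genes, WT scWAT replicate 3 lay above every array of the other groups. The median over all tested probes stayed between -0.82 and -0.75 on the 12 arrays.

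WT scWAT replicate 1 was among the 2 highest of the 12 arrays for 30 of the 35 genes, as it was for 20.6% of all tested probes. WT scWAT replicate 2 was among the 2 highest for 29 of the 35, against 33.4% of probes. WT scWAT replicate 3 was the lowest of its group for 34 of the 35, against 33.7% of probes. The exception was Mcm7, a subunit of the replicative helicase, which stood at 1.84, 1.72 and 1.92 in WT scWAT. Lr11-/- BAT replicate 1 was the lowest of the 12 arrays for 13 of the genes. Only 11 of the 23 mitosis genes were well above background on it, so its low ranks are limited by dim values. The heat map of the 35 genes shows these arrays beside the rest.

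**Figure D1:**
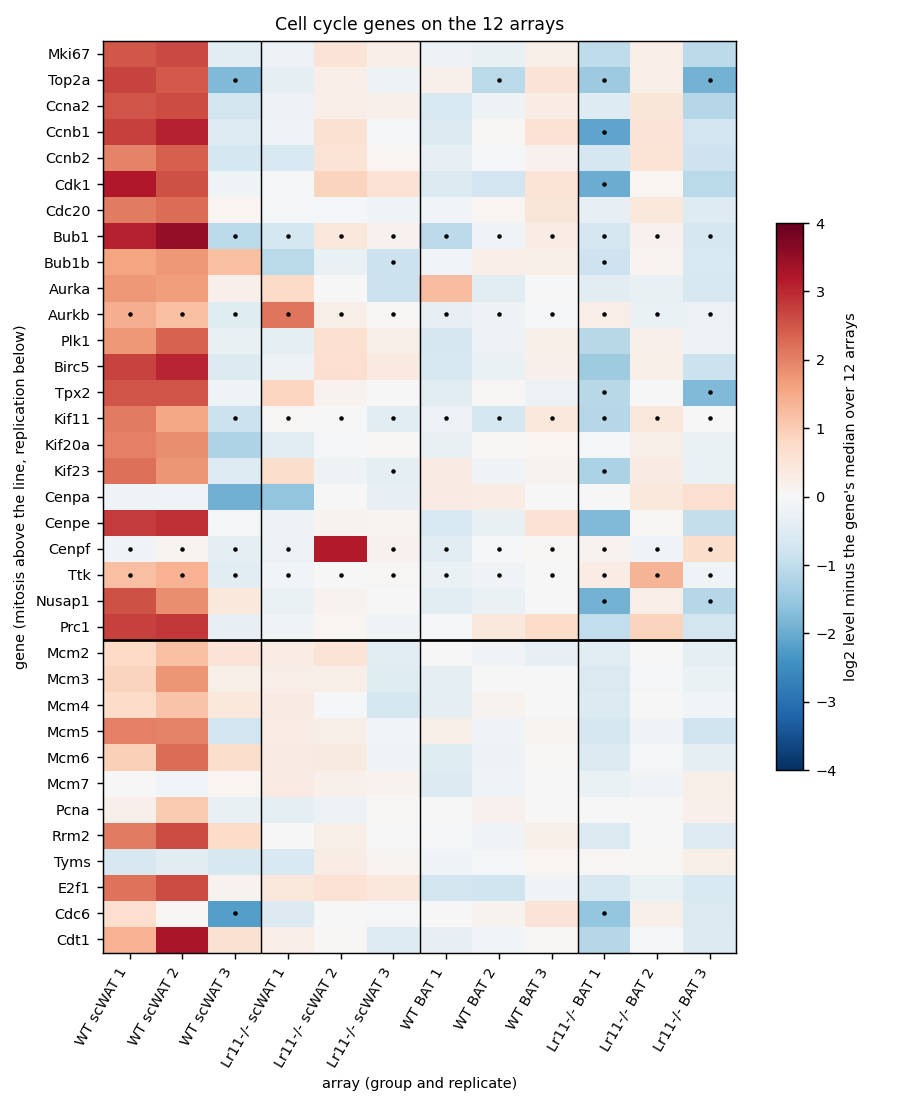
Heat map of the 35 genes (rows, mitosis above the line and replication below) on the 12 arrays (columns, 3 in each group). Colour gives the log2 level minus the median of the gene over the 12 arrays, on a scale from -4 to 4, and a black dot marks a value not well above background. WT scWAT replicates 1 and 2 are red for most genes, while replicate 3 is near the other groups for most mitosis genes.

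The step between the WT scWAT arrays was larger for mitosis than for replication. Between replicates 1 and 3 the mitosis genes differed by a median of 2.72 on the log2 scale (6.59-fold), with single genes between 0.20 and 4.45. Between replicates 2 and 3 they differed by a median of 2.65 (6.29-fold), with single genes between 0.45 and 4.58. All 23 genes enter these values. Of them 20 were well above background on replicate 1, 20 on replicate 2 and 17 on replicate 3. The largest differences therefore rest on dim values of replicate 3 and are not precise. For the replication genes the median was 0.58 between replicates 1 and 3 and 1.53 between replicates 2 and 3. Replicates 2 and 3 shared a slide and an array series, and replicate 1 came from the other series. Replicates 1 and 2, from different series, differed for the mitosis genes by a median of 0.11, between -0.69 and 0.60. Over all tested probes the same 3 medians were 0.01, 0.09 and 0.04. These are descriptions of single arrays and have no test.

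The spread of the genes within each group followed. In WT scWAT the median SD of the mitosis genes was 1.55 (n = 3 arrays), against 0.52 over all tested probes. In Lr11-/- scWAT it was 0.42 against 0.37, in WT BAT 0.30 against 0.24 and in Lr11-/- BAT 0.77 against 0.21. Values near background enter the spread in Lr11-/- BAT, where 11, 18 and 15 of the 23 genes were well above background. The 3 arrays spanned more than 2 on the log2 scale for 21 of the 35 genes in WT scWAT, where 18.3% of all tested probes did. They did so for 2 genes in Lr11-/- scWAT (9.01% of probes), for 0 in WT BAT (3.12%) and for 4 in Lr11-/- BAT (2.44%). The limma fit gives each gene 1 spread over all 4 groups. For genes that spread more in WT scWAT, it understates the SE and p of comparisons with that group.

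Mki67 encodes Ki-67, the protein coat of mitotic chromosomes that is used to stain dividing cells. Its level was 1.83, 1.99 and -1.09 in WT scWAT, -0.89, -0.14 and -0.38 in Lr11-/- scWAT, -0.87, -0.94 and -0.43 in WT BAT, and -1.68, -0.40 and -1.71 in Lr11-/- BAT. Replicates 1 and 2 of WT scWAT were above all other arrays, and replicate 3 lay below all 3 Lr11-/- scWAT arrays. The group means were 0.91 ± 1.73 in WT scWAT, -0.47 ± 0.38 in Lr11-/- scWAT, -0.75 ± 0.27 in WT BAT and -1.26 ± 0.75 in Lr11-/- BAT (SD, n = 3). A second Mki67 probe gave 1.51, 1.54 and -1.94 in WT scWAT and had the same order of its 3 arrays.

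Top2a, the topoisomerase that untangles chromosomes, stood at -1.01, -1.24 and -5.46 in WT scWAT, -4.05, -3.43 and -3.89 in Lr11-/- scWAT, -3.51, -4.78 and -3.18 in WT BAT, and -5.16, -3.43 and -5.60 in Lr11-/- BAT. Only 8 of its 12 values were well above background, and it passed the filter only through Lr11-/- scWAT. Ccnb1 encodes cyclin B1, which drives entry into mitosis together with the kinase Cdk1. The level of Ccnb1 was -0.59, -0.27 and -3.85 in WT scWAT, -3.50, -2.73 and -3.38 in Lr11-/- scWAT, -3.92, -3.30 and -2.76 in WT BAT, and -5.44, -2.82 and -4.10 in Lr11-/- BAT. Cdk1 stood at -0.05, -0.71 and -3.42 in WT scWAT, -3.33, -2.38 and -2.67 in Lr11-/- scWAT, -3.85, -4.03 and -2.71 in WT BAT, and -5.24, -3.19 and -4.33 in Lr11-/- BAT. For all 3 genes WT scWAT replicates 1 and 2 were the 2 highest arrays, and replicate 3 lay below all 3 Lr11-/- scWAT arrays.

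Among the replication genes the step was smaller. Mcm2, a subunit of the helicase that opens the DNA, stood at -0.89, -0.46 and -1.17 in WT scWAT, -1.38, -1.14 and -2.13 in Lr11-/- scWAT, -1.67, -1.83 and -1.99 in WT BAT, and -2.13, -1.70 and -2.04 in Lr11-/- BAT. The WT scWAT arrays did not overlap those of WT BAT, whereas Lr11-/- scWAT replicate 2 lay above WT scWAT replicate 3. Pcna encodes the sliding clamp of the DNA polymerases. Its level was 3.42, 4.26 and 2.93 in WT scWAT, 2.81, 2.97 and 3.27 in Lr11-/- scWAT, 3.23, 3.39 and 3.19 in WT BAT, and 3.19, 3.21 and 3.41 in Lr11-/- BAT. WT scWAT replicate 2 was the highest array, and the other 11 lay between 2.81 and 3.42.

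**Figure D2:**
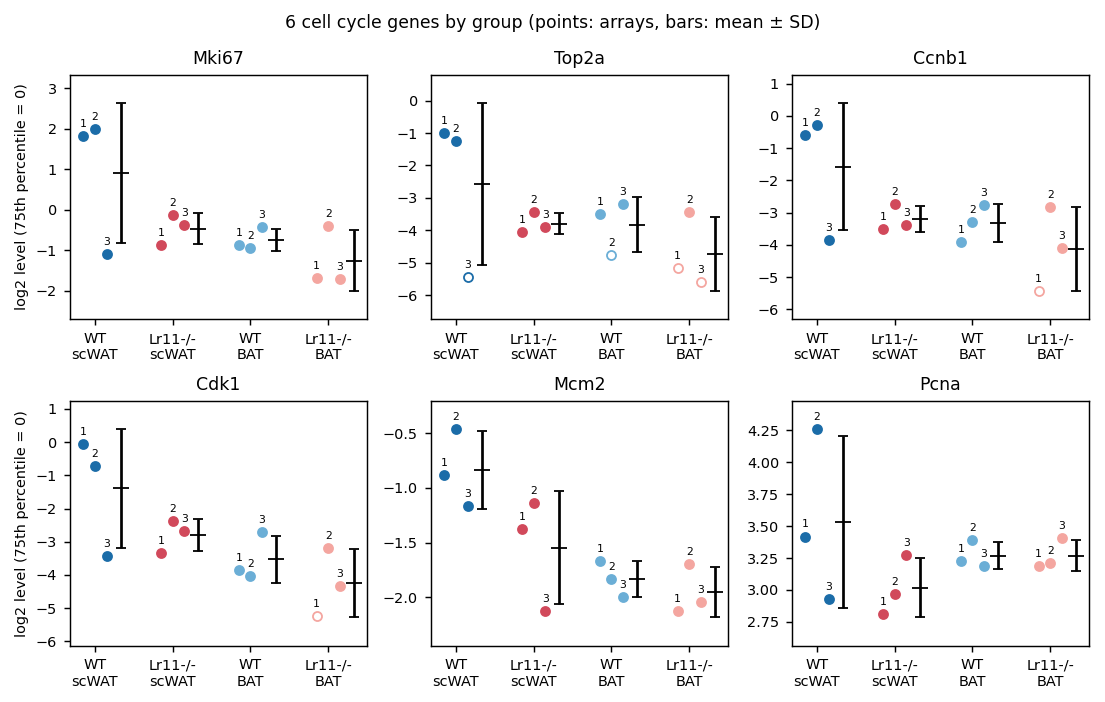
Log2 level (0 is the 75th percentile of the array; each panel has its own scale) of Mki67, Top2a, Ccnb1, Cdk1, Mcm2 and Pcna in the 4 groups. Points are arrays numbered by replicate, open where the value was not well above background, and bars are the mean ± SD of 3 arrays. Replicates 1 and 2 of WT scWAT lie apart from replicate 3 for the 4 mitosis genes, while Mcm2 and Pcna differ less.

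The first comparison asked whether loss of Lr11 changed the genes in scWAT. Of the 30 genes tested, 2 were lower in Lr11-/- scWAT at an adjusted p under 0.05 (limma over 32121 probes, Benjamini-Hochberg) and 0 were higher. Of all tested probes 1.87% were called lower and 3.4% higher. At an unadjusted p under 0.05, 13 of the 30 were lower, against 10.8% of probes, and 0 were higher, against 5397 of the 32121 probes. The median log2 difference of the 30 was -1.22, against 0.04 over all tested probes, and 26 of the 30 were below 0. The median was -1.92 within the first array series and -0.85 within the second. For 7 of the 30 the 3 Lr11-/- arrays lay below the 3 WT arrays without overlap, which 8.76% of all tested probes did. For 1, Mcm7, they lay above without overlap, as they did for 3752 of the 32121 probes.

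The genes called were Bub1b and Rrm2. Bub1b encodes BubR1, a kinase-like protein of the spindle checkpoint. It stood at -1.99, -1.86 and -2.36 in WT scWAT, -4.65, -3.84 and -4.43 in Lr11-/- scWAT, -3.70, -3.32 and -3.34 in WT BAT, and -4.41, -3.46 and -4.20 in Lr11-/- BAT. Unlike most mitosis genes, its 3 WT scWAT arrays lay close together, between -2.36 and -1.86, and all above the Lr11-/- scWAT arrays. Of its 12 values 10 were well above background, not those of Lr11-/- scWAT replicate 3 and Lr11-/- BAT replicate 1, and that of Lr11-/- scWAT replicate 1 lay at the limit. Bub1b was 4.71-fold lower in Lr11-/- scWAT, a log2 difference of -2.24 (SE 0.30, limma adjusted p = 0.012). Within the first array series the difference was -2.66 and within the second -2.03, and with the normexp background correction it was -1.05 (limma adjusted p = 0.03).

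Rrm2 encodes the small subunit of ribonucleotide reductase, which makes the building blocks of DNA. Its level was 0.89, 1.43 and -0.44 in WT scWAT, -1.19, -0.93 and -1.16 in Lr11-/- scWAT, -1.26, -1.29 and -0.93 in WT BAT, and -1.74, -1.17 and -1.69 in Lr11-/- BAT. All 3 WT scWAT arrays were above all other arrays. The SD of Rrm2 was 0.96 in WT scWAT and 0.14 in Lr11-/- scWAT, and the SE below pools all 4 groups. Rrm2 was 3.31-fold lower in Lr11-/- scWAT, a log2 difference of -1.73 (SE 0.40, limma adjusted p = 0.043), with -2.08 in the first array series and -1.55 in the second. This call was lost in 15 of 26 other settings, while that of Bub1b was lost in 2 of 25, with only the arrays of the 2 groups in the fit and without Lr11-/- scWAT replicate 3.

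The next 3 genes by p did not pass. Cdt1, a licensing factor that loads the helicase, stood at 0.59, 2.47 and -0.19 in WT scWAT, -0.54, -0.76 and -1.29 in Lr11-/- scWAT, -1.11, -0.91 and -0.73 in WT BAT, and -1.92, -0.83 and -1.34 in Lr11-/- BAT, a difference of -1.82 (95% interval -3.07 to -0.57, limma adjusted p = 0.077). Cdc20, the activator of the ligase that starts anaphase, stood at 0.67, 0.85 and -1.33 in WT scWAT, -1.48, -1.47 and -1.57 in Lr11-/- scWAT, -1.49, -1.31 and -0.91 in WT BAT, and -1.73, -0.99 and -1.93 in Lr11-/- BAT, a difference of -1.57 (-2.68 to -0.47, limma adjusted p = 0.082). Mcm6, another helicase subunit with the E2F letters in its promoter, stood at 2.23, 3.50 and 1.98 in WT scWAT, 1.59, 1.63 and 1.13 in Lr11-/- scWAT, 0.78, 1.05 and 1.32 in WT BAT, and 0.72, 1.21 and 0.89 in Lr11-/- BAT, a difference of -1.12 (-1.92 to -0.31, limma adjusted p = 0.087). In all 3 the genotypes did not overlap in scWAT, and WT scWAT replicate 3 was the WT array nearest to the Lr11-/- arrays.

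Mki67 had a difference of -1.38 in scWAT (95% interval -2.94 to 0.18, limma adjusted p = 0.23), with -2.71 in the first array series and -0.71 in the second. Top2a, Ccnb1, Ccnb2, Cdk1, Ccna2 (cyclin A2), Birc5 (survivin), Plk1 (polo-like kinase), Tpx2, Kif20a and Kif23 had differences between -1.63 and -1.03, each with an interval that included 0. Aurka and Nusap1 differed by -1.23 and -1.65 (limma adjusted p = 0.18 and 0.1). Prc1, which bundles the central spindle, and Cenpe, a kinetochore motor, differed by -1.83 and -1.88 (limma adjusted p = 0.15 and 0.13). The replication genes Mcm3, Mcm4, Mcm5 and E2f1 differed by -0.97, -0.91, -0.95 and -1.17, and none passed. The 4 genes with a difference above 0 were Cenpa, the histone of the centromere, at 0.11, Mcm7 at 0.23, Cdc6, a helicase loader, at 0.30 and Tyms, which makes thymidylate, at 0.51.

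The same step within WT scWAT was seen in further genes, given here as examples. Birc5 encodes survivin, a member of the chromosomal passenger complex, and stood at 2.01, 2.35 and -1.25 in WT scWAT, -0.91, -0.01 and -0.31 in Lr11-/- scWAT, -1.34, -0.95 and -0.48 in WT BAT, and -2.13, -0.45 and -1.55 in Lr11-/- BAT. Prc1 stood at 0.52, 0.63 and -2.55 in WT scWAT, -2.37, -2.13 and -2.40 in Lr11-/- scWAT, -2.29, -1.78 and -1.49 in WT BAT, and -3.18, -1.33 and -2.94 in Lr11-/- BAT. Ccna2, the cyclin of S phase and G2, stood at 0.09, 0.16 and -3.16 in WT scWAT, -2.68, -2.18 and -2.24 in Lr11-/- scWAT, -3.05, -2.63 and -2.12 in WT BAT, and -2.96, -1.95 and -3.57 in Lr11-/- BAT. In these 3 the first and second WT scWAT arrays were higher than all others. Plk1, a kinase active throughout mitosis, stood at 0.02, 0.63 and -2.03 in WT scWAT, -2.07, -1.09 and -1.49 in Lr11-/- scWAT, -2.38, -1.94 and -1.49 in WT BAT, and -2.83, -1.52 and -1.92 in Lr11-/- BAT. Kif20a, a motor of cytokinesis, stood at -0.55, -0.72 and -3.81 in WT scWAT, -3.03, -2.62 and -2.53 in Lr11-/- scWAT, -2.86, -2.52 and -2.48 in WT BAT, and -2.64, -2.33 and -2.82 in Lr11-/- BAT. Among the helicase subunits Mcm5 stood at 0.23, 0.17 and -2.56 in WT scWAT, -1.51, -1.58 and -1.93 in Lr11-/- scWAT, -1.55, -1.99 and -1.68 in WT BAT, and -2.47, -1.95 and -2.60 in Lr11-/- BAT. The first and second WT scWAT arrays were again the highest for these 3 genes, and the third was among the lower ones. Tyms had no such step, and stood at -2.22, -2.05 and -2.23 in WT scWAT, -2.19, -1.31 and -1.48 in Lr11-/- scWAT, -1.72, -1.64 and -1.50 in WT BAT, and -1.54, -1.54 and -1.36 in Lr11-/- BAT.

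Of the 5 genes that were not tested, Bub1 was well above background on WT scWAT replicates 1 and 2 and on no other array, at -2.66 and -2.24. For a lower bound on a ratio, each array of the dim group took the weakest signal that still counted as well above its background. The mean of Bub1 in WT scWAT was then 1.58-fold that of Lr11-/- scWAT and 1.65-fold that of WT BAT. That mean holds the dim value of WT scWAT replicate 3, so these ratios are not strict bounds, and the groups overlapped. Kif11, the motor that separates the spindle poles, was measured on the same 2 arrays, at -3.26 and -3.79. Its ratios were 1.12-fold and 1.17-fold, with the same limit. Aurkb and Ttk were not well above background on any array, and Cenpf only on Lr11-/- scWAT replicate 2, at -3.24.

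**Figure D3:**
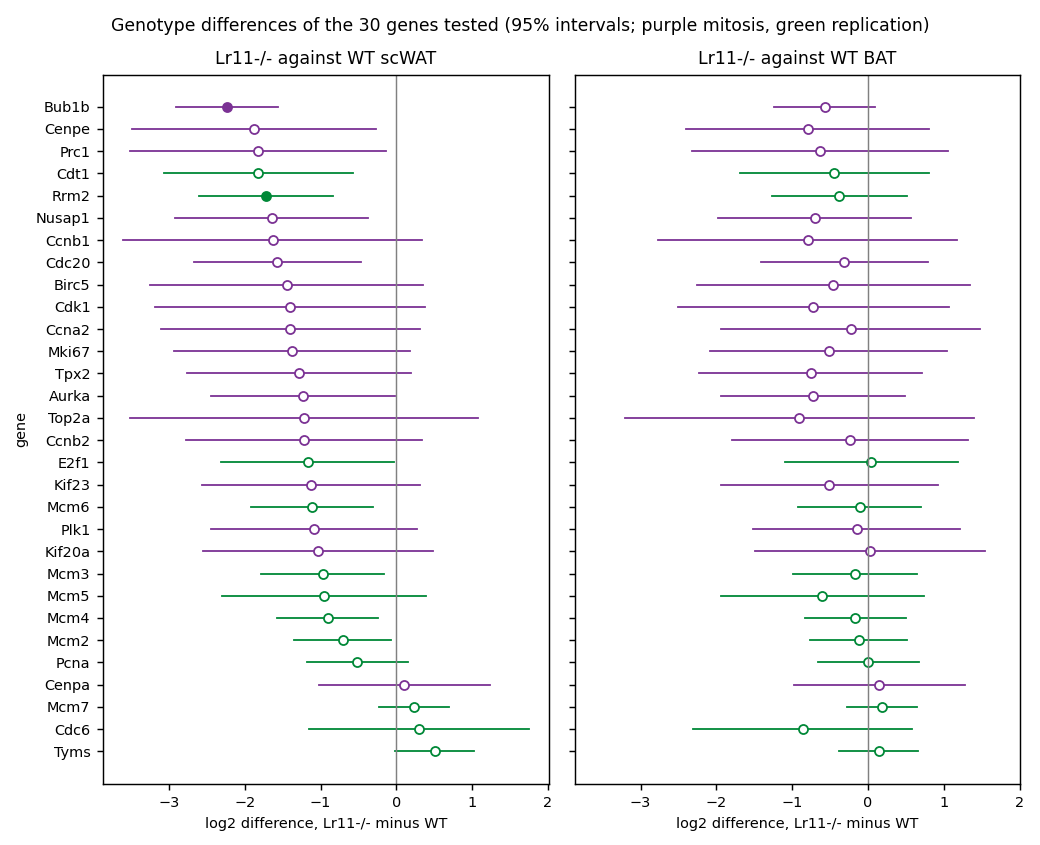
Log2 difference (Lr11-/- minus WT, x axis) of the 30 genes tested in scWAT (left) and BAT (right), in the same order of genes in both panels. Lines are 95% intervals from the fit, purple for mitosis and green for replication, and filled points are called. In scWAT 26 of the 30 points lie below 0 and Bub1b and Rrm2 are called, and in BAT none is called and the points lie nearer to 0.

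The count in scWAT depended on 1 array more than on any other. Without WT scWAT replicate 3, 22 of the 30 genes were called lower in Lr11-/- scWAT, 16 of the 18 mitosis genes and 6 of the 12 replication genes, against 6.16% of all tested probes in that fit. Both genes of the full comparison were among the 22. The median log2 difference was then -2.13. Mki67 differed by -2.38 (limma adjusted p = 0.0083), Top2a by -2.67 (limma adjusted p = 0.026), Ccnb1 by -2.77 (limma adjusted p = 0.024) and Cdk1 by -2.41 (limma adjusted p = 0.03). Replicate 3 was the lowest WT scWAT array for 34 of the 35 genes. Leaving it out therefore had to enlarge these differences, and the counts and p-values of this fit are not independent tests. Without replicate 2 of WT scWAT the count was 1 and the median -0.76, and without replicate 1 they were 2 and -0.89. Without Lr11-/- scWAT replicate 3 it was 0, without replicate 1 of that group 4 (3 lower and Tyms higher) and without replicate 2 it was 1. Without any single BAT array it was 1, Bub1b. For the fits other than that without WT scWAT replicate 3, the share of all tested probes called is not given. Their counts are therefore not read as results about these genes. The labels give no ground for leaving out an array, so the comparison with all 12 is the one reported.

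**Figure D4:**
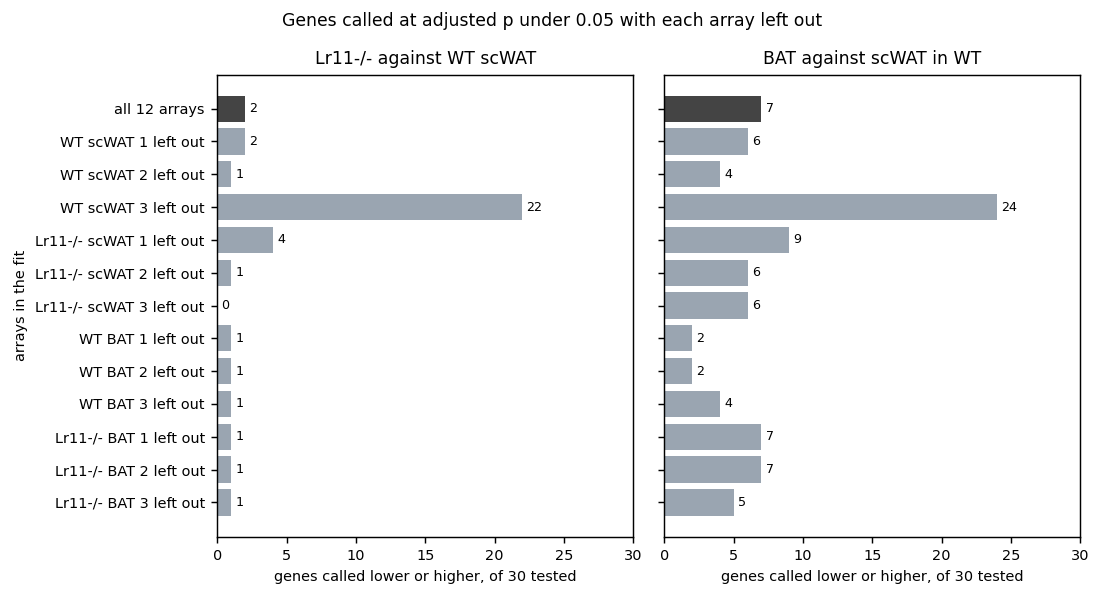
Number of the 30 tested genes called at an adjusted p under 0.05 (x axis) with all 12 arrays (dark bar) and with each array left out in turn (grey bars), for Lr11-/- against WT scWAT (left) and BAT against scWAT in WT (right). Leaving out WT scWAT replicate 3 takes the counts from 2 to 22 and from 7 to 24, and leaving out any other array gives between 0 and 9. The share of all tested probes called is not drawn.

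In BAT no gene was called in Lr11-/- against WT, and 0 of the 30 had an unadjusted p under 0.05. Of all tested probes 0.0187% (6) were called. The median log2 difference was -0.41, against 0.04 over all probes, and 24 of the 30 were below 0. Within the first array series the median was -0.58 and within the second -0.28. For 0 genes did the genotypes separate without overlap, as 4.65% of probes did with Lr11-/- lower and 2375 of the 32121 probes with Lr11-/- higher.

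Bub1b had the smallest p in BAT, with a difference of -0.57 (95% interval -1.24 to 0.10, limma adjusted p = 1). Cdc6 stood at -2.86, -3.50 and -5.75 in WT scWAT, -4.08, -3.55 and -3.61 in Lr11-/- scWAT, -3.53, -3.41 and -3.02 in WT BAT, and -5.08, -3.35 and -4.13 in Lr11-/- BAT, with -0.86 in BAT. The mitotic kinase Aurka stood at 0.10, 0.04 and -1.43 in WT scWAT, -0.87, -1.62 and -2.49 in Lr11-/- scWAT, -0.39, -2.08 and -1.65 in WT BAT, and -2.08, -1.94 and -2.26 in Lr11-/- BAT, with -0.72 in BAT. For both genes the genotypes overlapped in BAT. Nusap1, a spindle protein, stood at -0.75, -1.44 and -2.89 in WT scWAT, -3.56, -3.16 and -3.30 in Lr11-/- scWAT, -3.71, -3.56 and -3.29 in WT BAT, and -5.18, -3.04 and -4.44 in Lr11-/- BAT, and differed by -0.70 in BAT. Tpx2, an activator of the Aurka kinase, stood at -1.02, -1.01 and -3.66 in WT scWAT, -2.67, -3.37 and -3.50 in Lr11-/- scWAT, -3.97, -3.48 and -3.77 in WT BAT, and -4.65, -3.56 and -5.29 in Lr11-/- BAT, and differed by -0.76. Replicates 1 and 3 of Lr11-/- BAT were the 2 lowest BAT arrays for both, and replicate 2 lay among or above the WT BAT arrays. Both genes were well above background on only 1 of the 3 Lr11-/- BAT arrays, which limits these differences. Leaving out Lr11-/- BAT replicate 1 brought the median difference of the 30 genes to -0.15 and leaving out replicate 2 to -0.69.

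Whether loss of Lr11 acted differently on the genes of the 2 tissues was tested as an interaction, the difference in scWAT minus that in BAT. It was called for 0 of the 30 genes, and for 0% of all tested probes by limma, of which 1400 lay below 0 and 2137 above 0 at an unadjusted p under 0.05. At an unadjusted p under 0.05 it was below 0 for 2 genes, Bub1b at -1.66 (SE 0.43, limma adjusted p = 0.37) and Rrm2 at -1.35 (limma adjusted p = 0.43). Mcm6, Cdc20 and Mcm4 followed at -1.01, -1.26 and -0.74. Mcm4 itself, a helicase subunit, stood at 1.52, 1.92 and 1.22 in WT scWAT, 1.12, 0.71 and 0.09 in Lr11-/- scWAT, 0.44, 0.94 and 0.82 in WT BAT, and 0.25, 0.76 and 0.68 in Lr11-/- BAT, so that the genotypes did not overlap in scWAT and did in BAT. The median of the 30 was -0.85, with -1.36 in the first array series and -0.57 in the second. Without WT scWAT replicate 3 it was -1.71, and 3 genes were called, Kif20a at -2.11 (limma adjusted p = 0.031), E2f1 at -1.97 (limma adjusted p = 0.043) and Rrm2 at -1.88 (limma adjusted p = 0.049), against 0.274% of probes. The limit given above for the fit without that array holds here too.

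Both tissues were also compared within each genotype. In WT mice 7 of the 30 genes were lower in BAT than in scWAT, Bub1b and Nusap1 of the mitosis genes and Mcm2, Mcm6, Rrm2, E2f1 and Cdt1 of the replication genes, and 0 were higher. Among all tested probes 9.13% were called lower and 15.7% higher in BAT. At an unadjusted p under 0.05, 16 genes were lower, against 16.4% of probes, and 1, Tyms, was higher, against 7612 of the 32121 probes. For 9 genes the BAT arrays lay below the scWAT arrays without overlap (15.9% of probes), and for Tyms and Cenpa they lay above (7818 of the 32121 probes). The median log2 difference was -1.34, against 0.07 over all probes, with -2.16 in the first array series and -0.99 in the second. In the first series the tissues were on different slides, so its value holds both differences. This comparison shares the WT scWAT arrays with the genotype comparison in scWAT.

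E2f1 encodes the transcription factor that activates replication genes. It stood at 0.42, 0.88 and -1.61 in WT scWAT, -1.33, -1.17 and -1.32 in Lr11-/- scWAT, -2.47, -2.53 and -1.87 in WT BAT, and -2.37, -2.01 and -2.35 in Lr11-/- BAT, a difference of -2.19 between WT BAT and WT scWAT (SE 0.52, limma adjusted p = 0.014), or 4.56-fold lower in BAT. Rrm2 differed by -1.79 (SE 0.40, adjusted p = 0.012), Mcm6 by -1.52 (SE 0.36, adjusted p = 0.015), Bub1b by -1.38 (SE 0.30, adjusted p = 0.011) and Mcm2 by -0.99 (SE 0.29, adjusted p = 0.031), all by limma. For these 5 genes the WT BAT arrays lay below the WT scWAT arrays without overlap. E2f1 and Rrm2 had SDs of 1.32 and 0.96 in WT scWAT, against 0.37 and 0.20 in WT BAT. Their SE and p use 1 spread for all 4 groups and understate that of WT scWAT. Cdt1 and Nusap1 were lower by 3.67-fold and 3.55-fold (limma adjusted p = 0.035 and 0.041). The Nusap1 call was lost in 16 of 25 other settings and those of Cdt1 and Mcm2 in 10 of 26 each, against 2 to 5 for the other 4 genes. Mki67 differed by -1.66 (limma adjusted p = 0.11), Cdk1 by -2.14 (0.075), Ccnb1 by -1.75 (0.17), Top2a by -1.25 (0.39) and Pcna by -0.27 (0.54), and none of these 5 passed. Without WT scWAT replicate 3, 24 genes were lower in WT BAT, against 11.3% of probes, and 7 of the 24 were those of the full comparison. This count has the same limit as that fit in scWAT. Without WT BAT replicate 1 or replicate 2 the count was 2, and with the slide as a block it was 1, Bub1b. The share of all tested probes in these fits is not given. Only the slide of the second array series held both tissues, which limits the comparison with that block. A second Cdk1 probe differed by 0.36 in this comparison, the opposite sign of the brightest probe.

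In Lr11-/- mice 0 genes were called between BAT and scWAT, while 0.0405% of all tested probes (13) were, and 0 had an unadjusted p under 0.05. The median log2 difference was -0.44, with -0.85 in the first array series and -0.29 in the second. In the first series the tissues were again on different slides. Tpx2, E2f1 and Mcm5 were lower on all 3 BAT arrays than on the 3 scWAT arrays, which 9.19% of probes were. Tpx2 had the smallest p, with a difference of -1.32 (95% interval -2.79 to 0.15, limma adjusted p = 0.59), and E2f1, Cdk1 and Nusap1 differed by -0.97, -1.46 and -0.88. Cenpa ran the other way. It stood at -0.0035, -0.04 and -1.79 in WT scWAT, -1.45, 0.13 and -0.20 in Lr11-/- scWAT, 0.45, 0.43 and 0.14 in WT BAT, and 0.13, 0.55 and 0.78 in Lr11-/- BAT, a difference of 0.99 (limma adjusted p = 0.6), with the 2 lowest of the 12 arrays being WT scWAT replicate 3 and Lr11-/- scWAT replicate 1.

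Other genes of the cell cycle were taken from lists chosen by role, also with earlier results of these data known. Of 50 further mitosis genes 33 were tested, and 5 were lower and 0 higher in Lr11-/- scWAT, where 1.87% of all tested probes were lower and 3.4% higher. Among them were Nek2, a centrosome kinase (at least 2.72-fold lower, limma adjusted p = 0.014), Kif2c, a microtubule depolymerase (at least 2.07-fold, limma adjusted p = 0.042), and Gtse1 (at least 4.93-fold, limma adjusted p = 0.042), each of which was well above background on all 3 WT scWAT arrays and on 0 of the Lr11-/- scWAT arrays. Nek2, Kif2c and Gtse1 passed the filter through WT scWAT, the group where they were high. Their p-values are to be read with that limit. The median of the 33 was -1.12. Of 41 further replication genes 36 were tested, and 3 were lower, among them Mcm10 at -1.49 and E2f8 at -1.97, while 2 were higher, among them Cdc45 at 1.15, and the median was -0.12. In WT BAT against WT scWAT 9 of the 33 mitosis genes were lower and 1 higher, and 8 of the 36 replication genes were lower and 5 higher, against 9.13% of all tested probes lower and 15.7% higher. Nek2 and Kif2c, not well above background on any WT BAT array, were at least 2.85-fold and 2.16-fold lower there. The separase gene Espl1 differed by -1.60, Ung by 1.51, E2f8 by -2.51 and Cdc45 by 1.61. In the comparisons within BAT and within Lr11-/- mice 0 genes of either list were called.

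Of 7 genes of entry into G1, such as the D cyclins, 0 were called in any comparison, with a median log2 difference of -0.11 in scWAT and 0.09 in BAT between the genotypes. Of 18 genes that hold the cycle back, such as cyclin-dependent kinase inhibitors, 0 were called between the genotypes, with medians of -0.17 in scWAT and 0.08 in BAT. In WT BAT against WT scWAT 2 of the 18 were lower, a share near the 9.13% of all tested probes. They were Cdkn2a (at least 3.48-fold, limma adjusted p = 0.013), which was not well above background on any WT BAT array, and Trp53inp1 (log2 difference -1.68, limma adjusted p = 0.032). Cdkn2a passed the filter through WT scWAT, where it was high.

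Markers of several cell types differed across the same arrays. The 7 brown adipocyte markers, Ucp1 among them, summed to 19.4 on WT scWAT replicate 1, 0.959 on replicate 2 and 191 on replicate 3, and to between 269 and 3008 in Lr11-/- scWAT. The macrophage markers (7 on the array) summed to 64.0, 249 and 34.2 on the 3 WT scWAT arrays and to between 26.3 and 40.1 in Lr11-/- scWAT. The 8 progenitor markers summed to 178, 525 and 132 in WT scWAT and to between 52.2 and 109 in Lr11-/- scWAT. The neutrophil markers, of which 6 are on the array and 3 were tested, summed to 15.7, 232 and 3.24 in WT scWAT and to 9.40, 1.20 and 0.62 in Lr11-/- scWAT. The 5 endothelium markers summed to 44.0, 32.8 and 21.1 in WT scWAT and to between 32.4 and 37.9 in Lr11-/- scWAT. The 6 T lymphocyte markers summed to 10.2, 6.84 and 7.24 in WT scWAT and to between 11.4 and 14.3 in Lr11-/- scWAT. The skeletal muscle markers summed to 4.66, 2.53 and 2555 in WT scWAT and to 2791, 1.11 and 1.15 in Lr11-/- scWAT. With the mean of the muscle markers as a covariate, a setting added after the data were seen, 2 genes were called in scWAT and the median was -1.25. The part of these cell types in the results was not tested.

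**Figure D5:**
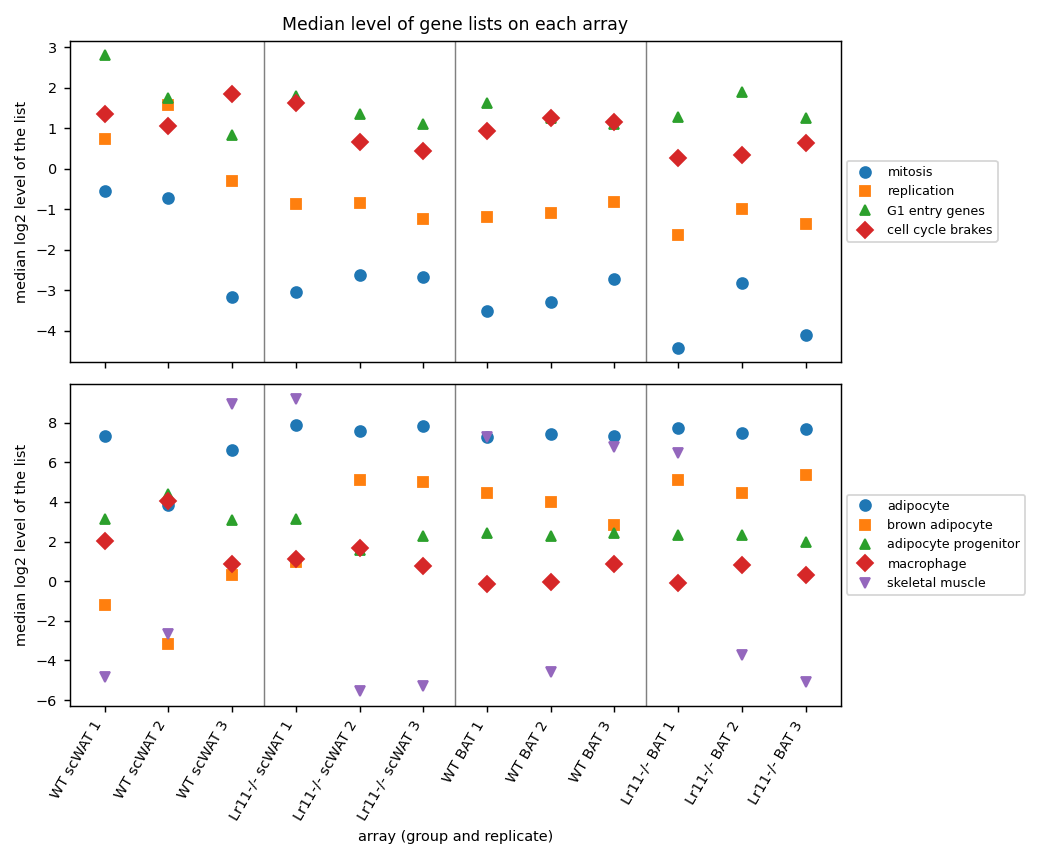
Median log2 level of gene lists (y axis) on each of the 12 arrays (x axis, 3 in each group), with the cell cycle lists above and the cell type markers below. The medians of the mitosis and replication genes are highest on WT scWAT replicates 1 and 2, the brown adipocyte median is lowest on the same 2 arrays, and the skeletal muscle median is high on 5 arrays of all 4 groups.

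Among the marker lists, the calls in Lr11-/- against WT scWAT were 3 of 7 brown adipocyte markers higher (Ucp1 by 10.14, Ppargc1a by 4.50 and Cidea by 8.70), 1 of 8 progenitor markers lower (Cd34 by -1.30) and 1 of 3 neutrophil markers lower (S100a8 by -4.86). Of all tested probes 1.87% were called lower and 3.4% higher in that comparison. Ucp1 and Cidea were well above background on only 2 of the 3 WT scWAT arrays. The adipocyte, endothelium, macrophage, B lymphocyte, germinal centre or plasma cell, T lymphocyte, erythroid, skeletal muscle and epithelium lists had 0 calls there. In WT BAT against WT scWAT 6 of 7 macrophage and 4 of 8 progenitor markers were lower and 1 progenitor marker, Dlk1, was higher by 4.16. There 6 brown adipocyte, 3 adipocyte, 1 endothelium and 1 T lymphocyte marker were higher, 1 neutrophil and 1 germinal centre marker were lower, and the other 4 lists had 0 calls, against 9.13% of all tested probes lower and 15.7% higher. With those shares, a single call in a list of this size is not read as a result about the list. In BAT between the genotypes and in Lr11-/- mice between the tissues 0 markers were called. The 8 B lymphocyte markers summed to between 3.72 and 4.52 in WT scWAT, and the 6 germinal centre or plasma cell markers to between 0.795 and 3.19.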

How the data were processed

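The authors deposited 1 Agilent scanner table per array, with the processed signal, an intensity that Feature Extraction 10.10 had already corrected for background. The log2 intensity minus the log2 of the array's 75th percentile was taken as the level. Control spots and outlier spots (128 to 181 an array) were left out and spots of a probe averaged. A probe was kept where some group had it well above background on each of its 3 arrays, which left 32121 of 55681. The arrays had between 32377 and 37002 spots well above background and 0 saturated spots, and the number of arrays limits the precision. Genes were named by RefSeq accession and read from their brightest probe, and 14698 named genes were tested. All 4 groups were fitted together with limma 3.58.1 in R 4.3.3 (lmFit and eBayes), with Benjamini-Hochberg adjustment over all tested probes at a threshold of 0.05. With 3 arrays against 3, the smallest p of an exact permutation test is 0.1. The code was tested on simulated data.

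The genes given in full by rule were Mki67, Top2a, Ccnb1, Cdk1, Mcm2 and Pcna, every gene called, and the 5 with the lowest p in each comparison. Birc5, Prc1, Ccna2, Plk1, Kif20a, Mcm5 and Tyms were given as examples outside this rule. The genes and all lists were chosen with earlier results of these data known. Scaling, background correction, filter, array series, slide, array weights, the arrays in the fit and each array left out were varied. Promoters came from a RefSeq table of GRCm38.p6. Figures were drawn with matplotlib 3.10.9 in Python 3.11.15.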

Additional observations from a re-analysis of the deposited data

How the results depend on the processing

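The median log2 difference of the 30 genes in scWAT stayed below 0 under all 28 alternatives run. The 2 calls in scWAT became 1 with scaling to the array median, without a filter, with a filter on all 12 arrays, with the array series as a block and with the slide as a block, and 0 with only the arrays of the 2 groups. In the second array series alone 3 were called, Bub1b, Mcm4 and, higher, Tyms, and not Rrm2. Leaving out 1 array gave between 0 and 22. The 7 calls between WT BAT and WT scWAT became 13 without scaling, 4 without a filter, 1 with the slide as a block, 0 in the second array series alone, 3 with array weights and 1 with only the arrays of the 2 groups, and between 2 and 24 with 1 array left out. In BAT the median of -0.41 was -0.13 after normexp. In Lr11-/- mice 3 genes were called between the tissues with array weights, and the median was -0.85 in the first array series alone and between -0.77 and -0.24 with 1 array left out. The interaction gave between 0 and 3 calls with 1 array left out, and a median between -1.71 and -0.40. Pcna in WT BAT against WT scWAT (-0.27) turned to 0.094 without WT scWAT replicate 2, and lay between -0.57 and 0.094 with 1 array left out. The causes were not tested. Scaling to the median moved the median of all probes in scWAT to 0.15 and no scaling to -0.20, and the genes' median relative to it was -1.27 under both. The muscle marker covariate was added after seeing the data and gave 8 calls between WT BAT and WT scWAT. The counts in this section are given without the share of all tested probes called in each setting. They cannot separate a change in these genes from a change over the whole array. No paired analysis was possible because the labels carry no replicate numbers, and those used here follow the order of the samples and pair nothing. Probes near background limit Top2a and the 5 genes not tested. In part they also limit Bub1b, Tpx2, Nusap1, Kif23 and Cdc6, each well above background on 10 of the 12 arrays. Ccnb1 and Cdk1 were well above background on 11.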
